A study of Mus musculus with 6 samples.

Results

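Genes of the mouse major histocompatibility complex (MHC, called H2 in the mouse) and of its loading machinery were described here. Members were all genes whose listed name starts with H2-, together with B2m, Cd74, Tap1, Tap2, Tapbp, Ciita and Nlrc5. They numbered 51 of 34745 listed genes, 36 of class I, 14 of class II and 1, H2-Ke6, of neither class. The mRNA libraries come from the left ventricle of infarcted mouse hearts (MI, myocardial infarction): 3 of MI-DAPA mice, which received the SGLT2 inhibitor dapagliflozin, and 3 of MI-NS mice, the controls, whose second abbreviation the labels do not spell out. All 6 libraries thus share the infarct, and uninfarcted hearts were not analysed here. The labels call the libraries biological replicates and give no strain, age, sex, dose or time after infarction, so a p-value here speaks only of the spread among the libraries, which may in part be technical. Libraries held 17207974 to 20563188 counts each, of which 34.3% to 42.0% lay on the mitochondrial chromosome, with the highest share of each group in its replicate 3.

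MHC class I molecules sit on nearly all nucleated cells and show peptides from inside the cell to CD8+ T cells. Each is a heavy chain (H2-K1 and H2-D1 are the classical ones) paired with the light chain beta-2-microglobulin (B2m). The TAP transporter pumps peptides into the endoplasmic reticulum, tapasin (Tapbp) bridges it to empty class I molecules, and NLRC5 switches class I genes on. Class II molecules are made mainly by professional antigen-presenting cells such as macrophages, dendritic cells and B cells, and show endocytosed peptides to CD4+ T cells. Their alpha and beta chains (H2-Aa with H2-Ab1; H2-Eb1) assemble on the invariant chain CD74, H2-DM exchanges the invariant chain fragment for a peptide, H2-O restrains H2-DM, and CIITA is the master switch of class II genes. In the heart, resident and infiltrating myeloid cells are known carriers of class II.

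Promoters of MHC genes are known for shared control elements, and 5 of them are shown because they belong to called members, classical chains and the light chain, with an entry in the promoter table. Each is the RefSeq window (build GRCm38.p6) from 250 bases before to 50 bases after an annotated start, given 5′ to 3′ on the gene's own strand. The windows are chr17:34000298-34000597 on the minus strand for H2-K1 (the first of its 2 listed starts), chr17:35262844-35263143 on the plus strand for H2-D1 and chr2:122147437-122147736 on the plus strand for B2m. For the class II genes they are chr17:34287774-34288073 on the minus strand for H2-Aa and chr17:34305617-34305916 on the plus strand for H2-Eb1. Capitals mark matches, on either strand, to 4 short motifs: GGGGA and TCCCC with any 1 base between (an NF-kB-type site of the class I enhancer), CTGATTGG (the Y box of class II genes, holding CCAAT inverted), GAAA and GAAA with any 2 bases between (an interferon response type site) and TGACG (the core of CRE-like sites, part of the X box).
H2-K1: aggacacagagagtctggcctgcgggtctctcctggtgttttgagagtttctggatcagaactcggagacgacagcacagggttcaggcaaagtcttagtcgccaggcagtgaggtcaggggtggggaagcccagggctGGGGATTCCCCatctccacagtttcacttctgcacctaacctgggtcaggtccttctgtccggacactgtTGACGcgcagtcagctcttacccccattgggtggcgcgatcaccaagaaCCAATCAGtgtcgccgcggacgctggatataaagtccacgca
H2-D1: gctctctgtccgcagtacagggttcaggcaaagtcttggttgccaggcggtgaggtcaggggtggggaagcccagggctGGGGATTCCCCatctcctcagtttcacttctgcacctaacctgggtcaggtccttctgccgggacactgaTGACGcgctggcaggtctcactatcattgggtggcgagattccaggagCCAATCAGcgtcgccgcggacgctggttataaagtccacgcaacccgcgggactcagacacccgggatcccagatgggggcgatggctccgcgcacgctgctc
B2m: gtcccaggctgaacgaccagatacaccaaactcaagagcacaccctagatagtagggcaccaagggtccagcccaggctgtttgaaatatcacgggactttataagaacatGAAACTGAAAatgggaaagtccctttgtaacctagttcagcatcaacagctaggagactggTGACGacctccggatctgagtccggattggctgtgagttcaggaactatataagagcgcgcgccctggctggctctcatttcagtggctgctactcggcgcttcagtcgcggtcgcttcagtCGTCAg
H2-Aa: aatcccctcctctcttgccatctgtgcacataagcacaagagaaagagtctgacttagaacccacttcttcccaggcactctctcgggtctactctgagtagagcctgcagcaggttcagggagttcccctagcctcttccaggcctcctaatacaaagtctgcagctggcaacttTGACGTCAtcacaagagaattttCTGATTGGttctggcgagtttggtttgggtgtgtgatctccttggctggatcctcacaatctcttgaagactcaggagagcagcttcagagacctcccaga
H2-Eb1: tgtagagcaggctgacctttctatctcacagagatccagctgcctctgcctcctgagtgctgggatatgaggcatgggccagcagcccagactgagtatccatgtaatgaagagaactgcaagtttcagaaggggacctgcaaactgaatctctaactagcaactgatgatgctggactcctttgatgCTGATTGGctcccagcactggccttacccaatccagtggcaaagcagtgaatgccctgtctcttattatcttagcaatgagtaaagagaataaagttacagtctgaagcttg

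Of the members, 34 had a promoter in the RefSeq table, with 37 starts among them. The NF-kB-type motif, which reads the same on each strand, occurred at 0.0487% of all 32851 starts and, among members, in H2-K1, H2-D1 and H2-Q6 only. CTGATTGG occurred at 4.1% of all starts and at 20 of the 37 member starts. It stands on the gene's own strand in the class II windows of H2-Aa and H2-Eb1 above. In the class I windows of H2-K1 and H2-D1 it stands on the opposite strand, as CCAATCAG, and was not read there as a Y box. Its match begins before the annotated start in H2-D1 (-53), H2-Aa (-51) and H2-Eb1 (-62), but after the start used for H2-K1 (position 9). The interferon response type motif occurred at 3.44% of all starts and, among members, in B2m, H2-T22 and H2-T23. Only this exact pattern was searched, and sequences close to it were not counted. A window without a match, such as those of H2-K1 and H2-D1, may therefore still hold an interferon response site. TGACG is short and occurred at 20.8% of all starts and at 15 of the 37 member starts; in H2-Aa its matches on the 2 strands overlap. The H2 genes are related in sequence, so their matches are not independent of each other, and a match describes letters, not a factor's binding.

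Most members lie on chromosome 17 (47 of 51); B2m is on chromosome 2, Nlrc5 on chromosome 8, Ciita on chromosome 16 and Cd74 on chromosome 18. Of the 51 members 26 passed the filter on low counts, 25 of them by reaching its cut-off of 0.501 CPM (counts scaled to library size) in every library and H2-Ob in 3 of 6. Another 10 had between 1 and 44 counts in the 6 libraries together and were not tested: H2-Q2, H2-Q10, H2-M2, H2-M5, H2-M9, H2-M6-ps and H2-Bl of class I, and H2-DMb2, H2-Eb2 and H2-Oa of class II. The remaining 15 had 0 counts in every library, which allows up to 0.133 to 0.178 CPM in a single library (3 counts). They were the H2-M10 genes, H2-M1, H2-M11, H2-Q1, H2-Q3 and H2-T3 of class I, and H2-Pa, H2-Pb and H2-Ea-ps, the E alpha chain gene that GENCODE lists as a polymorphic pseudogene, of class II.

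MI-DAPA ventricles carried less of the main MHC transcripts than MI-NS ventricles. At an adjusted p under 0.05 (quasi-likelihood test of edgeR, Benjamini-Hochberg over 13940 genes), 9 members were lower and 0 were higher. Class I contributed 5 of its 17 tested genes (B2m, H2-D1, H2-K1, H2-T23 and H2-Q6) and class II 4 of its 8 (H2-Ab1, H2-Aa, H2-Eb1 and H2-DMa). Over all genes tested, 7.83% were called lower and 8.69% higher. No member was higher at an unadjusted p under 0.05 (0), by DESeq2 (0) or by limma-voom (0). Changes were modest: the 9 falls lay between 1.28-fold and 1.58-fold, and the median log2 change was -0.36 over the 17 class I genes and -0.55 over the 8 class II genes, against -0.019 over all tested genes. All 3 MI-DAPA libraries lay below all 3 MI-NS libraries for 14 of the 17 class I and 5 of the 8 class II genes, against 18.5% of all tested genes. In bulk tissue fewer cells of a type and less RNA per cell cannot be told apart, and the summed leukocyte markers, at 50.1 to 55.7 CPM in MI-DAPA and 60.5 to 86.6 CPM in MI-NS, were lower too; their part in the result was not tested.

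The files of replicate 3 of each group are named in another style than the others, for a reason that no source used here gives. Without replicate 3 of both groups, with 2 libraries against 2, the 9 called members had log2 changes of -0.70 to -0.25 and adjusted p of 0.0826 to 0.326 (edgeR), so that 0 class I and 0 class II genes were called, while 5 of each class had an unadjusted p under 0.05. In that fit 24 genes of all tested were called, against 2304 with every library. With the naming style as a term in the fit, 4 class I and 3 class II genes were called lower, against 967 genes lower and 1105 higher over all tested.

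**Figure D1:**
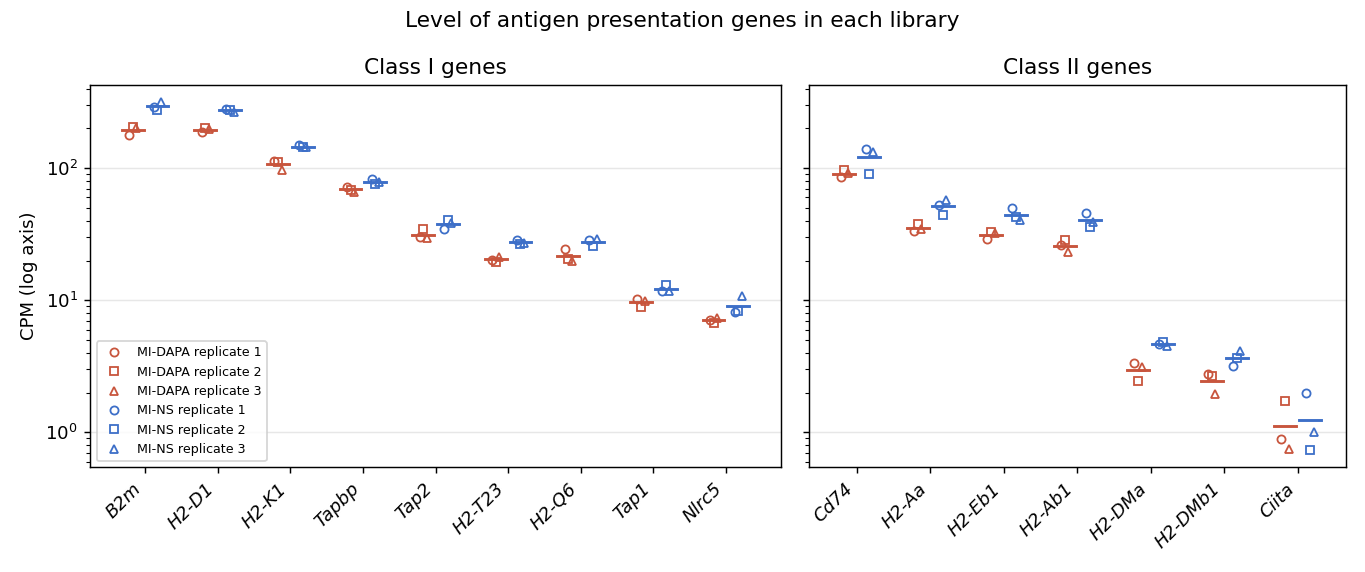
CPM (log axis) of 9 class I genes (left panel) and 7 class II genes (right panel) in each library, MI-DAPA in red left of MI-NS in blue; symbols mark the replicate and bars the group mean. B2m spans 178 to 205 CPM in MI-DAPA and 277 to 315 CPM in MI-NS without overlap, while Cd74 and Ciita overlap between the groups.

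The classical class I heavy chains and their light chain were the most abundant members that fell. Levels are CPM with TMM-scaled library sizes, for replicates 1 to 3 in order. B2m (ENSMUSG00000060802, chromosome 2, 122147686 to 122153083, mm10) had 178, 205 and 200.1 CPM in MI-DAPA, against 290, 277 and 315 CPM in MI-NS. Every MI-DAPA library was below every MI-NS library by a wide margin, a log2 change of -0.60 ± 0.08 (SE; 1.51-fold lower, edgeR adjusted p = 0.00499). H2-D1 (ENSMUSG00000073411, chromosome 17, 35262730 to 35267499) had 187, 202 and 198 CPM in MI-DAPA, against 279, 275 and 266 CPM in MI-NS. Spread within each group was small beside the gap, with means of 196 ± 7.82 CPM in MI-DAPA and 274 ± 6.67 CPM in MI-NS (SD, n = 3 each) and a log2 change of -0.48 ± 0.07 (edgeR adjusted p = 0.00499). H2-K1 (ENSMUSG00000061232, chromosome 17, 33996017 to 34000333) had 113, 112 and 96.8 CPM in MI-DAPA, against 149, 144 and 144 CPM in MI-NS. The groups were apart, with MI-DAPA replicate 3 the lowest library, and the log2 change was -0.44 ± 0.08 (1.36-fold lower, edgeR adjusted p = 0.00901). All 3 kept their calls with any single library left out.

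The B2m protein also pairs with non-H2 heavy chains, and its counts were set against those of its classical partners. B2m counts divided by the summed counts of H2-K1 and H2-D1 were 0.594, 0.653 and 0.68 in MI-DAPA, against 0.677, 0.661 and 0.768 in MI-NS. The groups overlapped, with MI-DAPA replicate 1 lowest and MI-NS replicate 3 highest. Such ratios of counts within a library do not depend on the scaling between libraries.

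Among the other class I heavy chains, H2-T23 and H2-Q6 fell. H2-T23 encodes Qa-1, which presents peptides of class I leader sequences to NKG2A receptors. It had 20.2, 19.5 and 21.4 CPM in MI-DAPA, against 28.5, 26.7 and 27.2 CPM in MI-NS. The spread within each group (SD 0.948 CPM in MI-DAPA and 0.949 CPM in MI-NS) was small beside the gap, and the log2 change was -0.43 ± 0.08 (edgeR adjusted p = 0.012), called with any single library left out. H2-Q6, a Qa-2 gene, had 24.4, 20.6 and 19.8 CPM in MI-DAPA, against 28.6, 25.7 and 29 CPM in MI-NS. Its groups were close, its log2 change of -0.36 ± 0.11 passed narrowly (edgeR adjusted p = 0.0496), and with single libraries left out the call held in the fit lacking MI-DAPA replicate 1 (adjusted p = 0.0438) and in no other (0.0603 to 0.172).

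The remaining Q, T, K and M region genes did not pass, and all had negative log2 changes. H2-Q4, a Qb-1 gene, had 47.1, 41.0 and 47.1 CPM in MI-DAPA, against 56.9, 51.4 and 58.0 CPM in MI-NS, apart in every library but just missing the threshold (log2 -0.30 ± 0.09, edgeR adjusted p = 0.0536). H2-T22, a ligand of some gamma delta T cell receptors, had 23.9, 18.4 and 16.4 CPM in MI-DAPA, against 27.0, 22.2 and 28.9 CPM in MI-NS, with MI-DAPA replicate 1 inside the MI-NS range (log2 -0.41 ± 0.16). H2-Q7, another Qa-2 gene, had 15.8, 12.5 and 14.5 CPM in MI-DAPA, against 17.5, 16.8 and 17.5 CPM in MI-NS. The libraries did not overlap, with a log2 change of -0.28 ± 0.11 (edgeR adjusted p = 0.114). H2-Q5, listed as a polymorphic pseudogene, had 4.82, 5.42 and 5.11 CPM in MI-DAPA, against 6.34, 6.33 and 6.71 CPM in MI-NS (log2 -0.34 ± 0.13). H2-T24 had 7.15, 5.96 and 7.58 CPM in MI-DAPA, against 5.55, 7.50 and 8.85 CPM in MI-NS, fully intermixed at a log2 change of -0.077 ± 0.19, whose sign turned without MI-DAPA replicate 2 (0.030) or MI-NS replicate 3 (0.082). The other tested heavy chain genes were H2-M3, which presents formylated peptides (-0.47 ± 0.19), H2-T10 (-0.32 ± 0.24) and H2-K2, a transcribed pseudogene with the most negative log2 change of the members (-0.83 ± 0.26, edgeR adjusted p = 0.0596).

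Peptide loading genes and the class I transactivator did not pass. Tapbp had 71.7, 68.9 and 66.2 CPM in MI-DAPA, against 82.2, 76.0 and 78.4 CPM in MI-NS. Its groups did not overlap, but the difference was the smallest of the loading genes (log2 -0.19 ± 0.07, edgeR adjusted p = 0.101). Tap1 had 10.2, 8.86 and 9.94 CPM in MI-DAPA, against 11.8, 13.1 and 11.7 CPM in MI-NS, without overlap (log2 -0.33 ± 0.11, edgeR adjusted p = 0.0775). Tap2 had 30.2, 34.7 and 29.4 CPM in MI-DAPA, against 34.4, 40.6 and 38.3 CPM in MI-NS, with MI-DAPA replicate 2 above MI-NS replicate 1 (log2 -0.26 ± 0.10). TAP1 and TAP2 form 1 dimer, and Tap2 counts were 2.95, 3.91 and 2.95 times Tap1 counts in MI-DAPA, against 2.91, 3.10 and 3.27 times in MI-NS, overlapping ranges (exact two-sided permutation p = 0.8, also 0.8 adjusted over the 4 ratios tested). With 3 libraries against 3 that test cannot give a p below 0.1. Nlrc5 had 7.10, 6.70 and 7.35 CPM in MI-DAPA, against 8.16, 8.29 and 10.8 CPM in MI-NS. All MI-DAPA libraries were lower, with MI-NS replicate 3 the highest of all, and the log2 change of -0.36 ± 0.15 did not pass (edgeR adjusted p = 0.129).

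**Figure D2:**
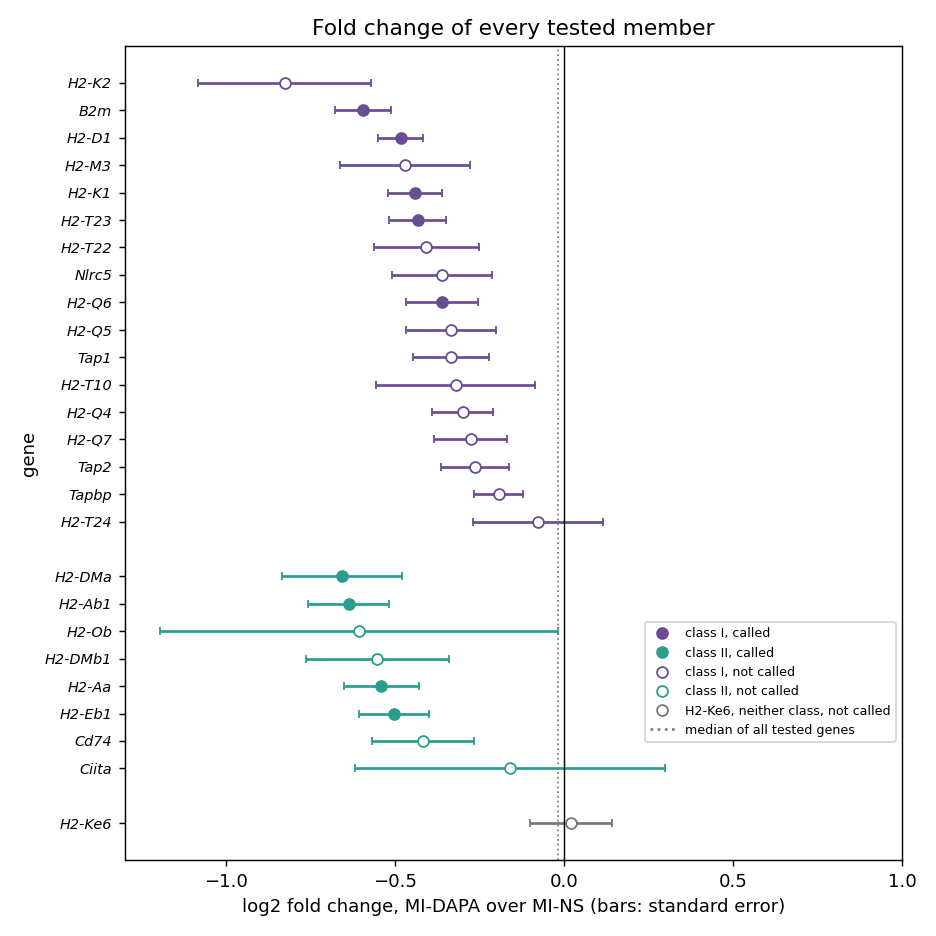
Log2 fold change of each tested member, MI-DAPA over MI-NS, with its standard error; filled points were called at an adjusted p under 0.05, and the dotted line is the median of all tested genes. All 17 class I and 8 class II points lie left of 0, and H2-Ke6 lies at 0.020.

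The classical class II chains fell together. H2-Ab1 (ENSMUSG00000073421, chromosome 17, 34263209 to 34269418), the beta chain of I-A, had 26.3, 28.5 and 23.1 CPM in MI-DAPA, against 46.1, 36.0 and 39.0 CPM in MI-NS. The groups were well apart, with a log2 change of -0.64 ± 0.12 (1.56-fold lower, edgeR adjusted p = 0.0103). H2-Aa (ENSMUSG00000036594, chromosome 17, 34282744 to 34287827), its alpha chain, had 33.3, 38.1 and 34.8 CPM in MI-DAPA, against 53.0, 44.2 and 57.4 CPM in MI-NS. MI-NS replicate 2 was the closest to the MI-DAPA libraries, and the log2 change was -0.54 ± 0.11 (1.45-fold lower, edgeR adjusted p = 0.0143). H2-Eb1 (ENSMUSG00000060586, chromosome 17, 34305877 to 34316199), the I-E beta chain, had 29.0, 32.8 and 32.3 CPM in MI-DAPA, against 50.3, 42.6 and 40.6 CPM in MI-NS. It too was apart in every library (log2 -0.50 ± 0.10, edgeR adjusted p = 0.0149). Counts of H2-Ea-ps, the I-E alpha chain gene, were 0 in every library. The H2-Eb1 values therefore describe the beta chain transcript, not I-E molecules. H2-Ab1 kept its call with any single library left out, H2-Aa lost it without MI-DAPA replicate 1 (adjusted p = 0.0631) or replicate 3 (0.0549), and H2-Eb1 lost it without MI-DAPA replicate 1 (0.0631). H2-Aa counts were 1.26, 1.34 and 1.51 times H2-Ab1 counts in MI-DAPA, against 1.15, 1.23 and 1.47 times in MI-NS, with overlap (exact two-sided permutation p = 0.4, 0.533 adjusted over the 4 ratios, in a test that cannot give a p below 0.1).

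The invariant chain and the class II switch did not pass. Cd74 (chromosome 18, 60803848 to 60812646) had 85.1, 96.8 and 91.3 CPM in MI-DAPA, against 140, 91.1 and 134 CPM in MI-NS. The MI-DAPA libraries were alike, while MI-NS replicate 2 lay inside the MI-DAPA range and the other two MI-NS libraries far above it. The log2 change was -0.42 ± 0.15 (edgeR adjusted p = 0.0913), and without MI-NS replicate 2 it was -0.58 ± 0.08 and passed (adjusted p = 0.00767). By DESeq2 with all libraries Cd74 passed (adjusted p = 0.0378), while H2-DMa did not (0.062). Cd74 counts relative to the sum of H2-Aa, H2-Ab1 and H2-Eb1 were 0.96, 0.974 and 1.01 in MI-DAPA, against 0.939, 0.742 and 0.974 in MI-NS, with the same MI-NS library lowest. Ciita had 18, 35 and 13 counts (0.894, 1.72 and 0.747 CPM) in MI-DAPA, against 45, 15 and 17 counts (2.0, 0.736 and 1.01 CPM) in MI-NS. One library of each group was high, and the log2 change of -0.16 ± 0.46 turned to 0.39 without MI-NS replicate 1 and to 0.076 without MI-DAPA replicate 3.

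Of the peptide exchange genes H2-DMa fell. It had 3.33, 2.46 and 3.10 CPM in MI-DAPA, against 4.66, 4.86 and 4.52 CPM in MI-NS. The groups did not overlap (log2 -0.66 ± 0.18, 1.58-fold lower, edgeR adjusted p = 0.0374), but the call was lost with any single library left out (adjusted p 0.0692 to 0.103). H2-DMb1, which encodes a beta chain partner, had 2.78, 2.66 and 1.95 CPM in MI-DAPA, against 3.19, 3.63 and 4.10 CPM in MI-NS, again apart (log2 -0.55 ± 0.21, edgeR adjusted p = 0.109). H2-Ob, the H2-O beta chain, overlapped at 7 to 16 counts in MI-DAPA and 4 to 24 counts in MI-NS (log2 -0.61 ± 0.59). The class II genes called lower numbered 1, 3 and 2 without MI-DAPA replicates 1, 2 and 3, and 3, 4 and 3 without MI-NS replicates 1, 2 and 3, against 4 in all libraries. The class I genes called lower were 5, 4 and 4, and 4, 4 and 4, against 5. Over all tested genes those called lower in the same fits were 457, 844 and 477, and 767, 820 and 542, against 1092.

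H2-Ke6 carries an H2 name only by its place in the complex and encodes a hydroxysteroid dehydrogenase. It had 24.7, 23.6 and 27.7 CPM in MI-DAPA, against 24.4, 28.9 and 21.6 CPM in MI-NS, intermixed (log2 0.020 ± 0.12, with its sign turned at -0.087 when only library totals were used, edgeR adjusted p = 0.933). A longer gene model, Gm20427, overlaps it on the same strand and shares 61.6% of its 100-base words, so its counts are uncertain.

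Class I and class II were set against each other in each library. Summed class I counts came to 749, 769 and 746 CPM in MI-DAPA, against 1036, 1000.3 and 1051 CPM in MI-NS. Summed class II counts came to 181, 204 and 189 CPM in MI-DAPA, against 301, 225 and 281 CPM in MI-NS. Both sums were lower in all MI-DAPA libraries, at 0.733 times the MI-NS mean for class I and 0.712 times for class II, and the spread among MI-NS libraries was 26.3 CPM (SD) for class I and 39.4 CPM for the smaller class II sum. The ratio of class II to class I counts was 0.242, 0.265 and 0.253 in MI-DAPA, against 0.29, 0.225 and 0.267 in MI-NS. The MI-DAPA ratios lay inside the MI-NS range. H2-Ab1 over H2-K1, 1 gene of each class, was 0.232, 0.255 and 0.239 in MI-DAPA, against 0.31, 0.25 and 0.271 in MI-NS (exact two-sided permutation p = 0.2, 0.533 adjusted over 4 ratios tested). Cd74 over B2m was 0.477, 0.472 and 0.456 in MI-DAPA, against 0.484, 0.329 and 0.424 in MI-NS (exact two-sided permutation p = 0.4, 0.533 adjusted). The smallest p that 3 libraries against 3 allow is 0.1, and these ratios were chosen after the values were seen. No p of these ratios could therefore pass 0.05, and whether the fold changes of the classes differ was not settled.

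**Figure D3:**
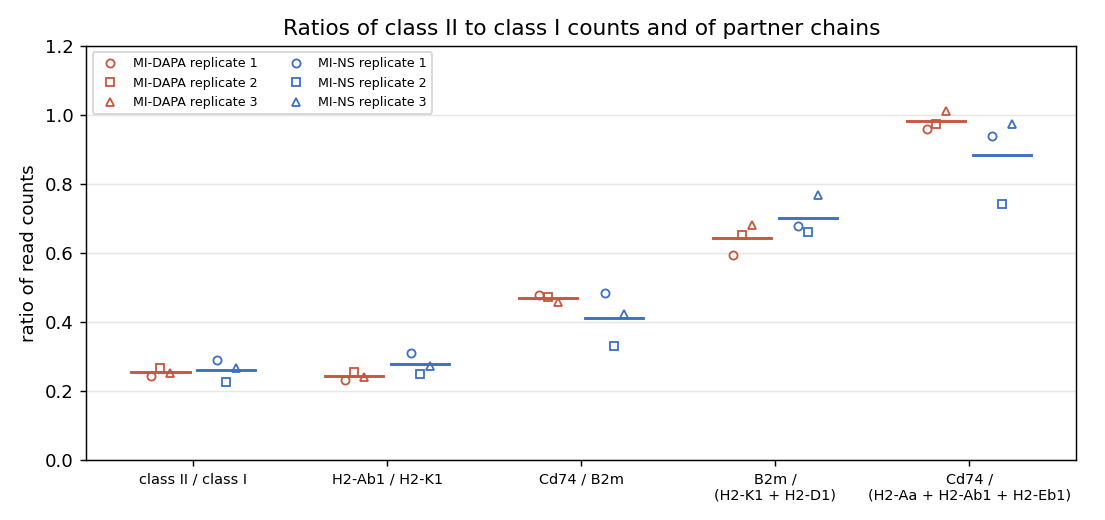
Ratios of read counts within each library, MI-DAPA in red left of MI-NS in blue, with group means as bars. The ratio of class II to class I counts is 0.242 to 0.265 in MI-DAPA and 0.225 to 0.29 in MI-NS, and MI-NS replicate 2 is the lowest library for both Cd74 ratios.

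Levels between genes were compared per kilobase of exon (RPKM, from GENCODE M21 exon lengths). B2m was first in each group, at 226 ± 16.5 RPKM in MI-DAPA and 342 ± 22.6 RPKM in MI-NS, and H2-D1 second, at 75.9 ± 3.03 RPKM in MI-DAPA and 106 ± 2.59 RPKM in MI-NS (SD, n = 3 each). Cd74 came next, at 54.2 ± 3.48 RPKM in MI-DAPA and 72.5 ± 15.9 RPKM in MI-NS, ahead of H2-K1, at 36.5 ± 3.11 RPKM in MI-DAPA and 49.6 ± 0.963 RPKM in MI-NS. The class II chains stood lower, H2-Eb1 at 16.2 ± 1.07 RPKM in MI-DAPA and 22.9 ± 2.63 RPKM in MI-NS, and H2-Ab1 and H2-Aa at 10.1 ± 1.05 and 9.32 ± 0.648 RPKM in MI-DAPA and 15.7 ± 2.02 and 13.6 ± 1.78 RPKM in MI-NS, a pair within its spread. The transactivators were near the bottom, Nlrc5 at 0.83 ± 0.0392 RPKM in MI-DAPA and 1.07 ± 0.176 RPKM in MI-NS, and Ciita at 0.118 ± 0.0552 RPKM in MI-DAPA and 0.131 ± 0.0695 RPKM in MI-NS. Tap2 was well above Tap1, at 8.31 ± 0.753 against 1.77 ± 0.132 RPKM in MI-DAPA and 9.98 ± 0.832 against 2.23 ± 0.142 RPKM in MI-NS.

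**Figure D4:**
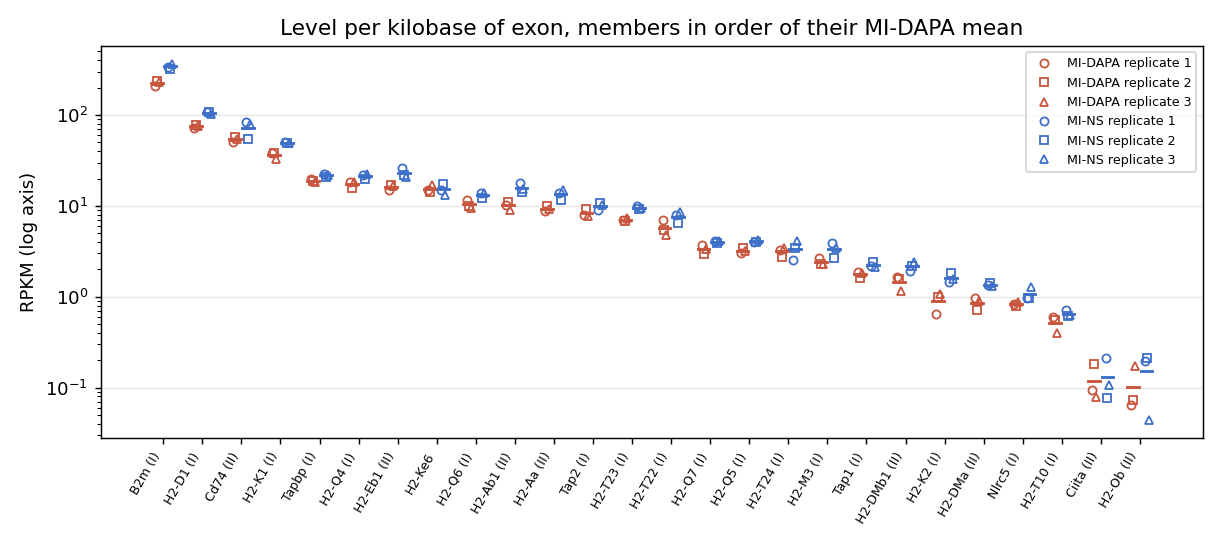
RPKM (log axis) of the 26 tested members in each library, ordered by the MI-DAPA mean, with the class in brackets; MI-DAPA in red left of MI-NS in blue, bars are group means. B2m leads at 226 RPKM in MI-DAPA and 342 RPKM in MI-NS, and Ciita and H2-Ob are last.

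The H2 genes are close copies, and no source used here says how the authors' counting treated reads that match several of them. Of the words of 100 bases in their GENCODE M21 transcripts, B2m, Cd74, H2-Aa, H2-Ab1, H2-Eb1 and Nlrc5 shared 0.0% with any other gene. H2-K1 shared 0.957% and H2-D1 3.59%, while H2-Q6 shared 13.0%, H2-Q4 14.1%, H2-Q5 14.0%, H2-Q7 12.0%, H2-T10 28.1% and H2-T22 31.5%. H2-T23 shared 3.15% and H2-T24 0.0%. Counts of H2-Q5, H2-Q6 and H2-Q7 are uncertain between copies, their main partner being H2-Q7 or, for H2-Q7, H2-Q10. For H2-Q4, H2-T10 and H2-T22 most of the shared words lay in an overlapping gene on the opposite strand (Gm11131 with 11.8%, BC023719 with 22.5% and A930015D03Rik with 24.0%). H2-DMb1 shared 11.3% with H2-DMb2, and H2-DMa 6.58% with Brd2. Genes on the opposite strand overlap B2m (Patl2), Tap1 (Psmb9), Tap2 (Gm20496 and Gm15821), Ciita (Dexi), H2-Q4 (Gm11131), Tapbp (Gm19412), H2-T10 (BC023719) and H2-T22, H2-T23 and H2-T24 (A930015D03Rik). Whether the counting used strand is unstated, so reads from stretches that such partners share in their transcripts cannot be told apart. The words were compared on both strands, and B2m and H2-T24, at 0.0%, shared no such word with their partners. On the same strand Zbtb22 overlaps Tapbp and Gm7030 overlaps H2-T10.

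Processing genes outside the members were mixed. Psmb8, an immunoproteasome subunit that is induced by interferon gamma and cuts peptides for class I, had 9.14, 9.50 and 8.56 CPM in MI-DAPA, against 13.0, 16.4 and 11.5 CPM in MI-NS, and fell (log2 -0.59 ± 0.15, edgeR adjusted p = 0.0282). Its partners Psmb9 (-0.37 ± 0.22) and Psmb10 (-0.18 ± 0.08) did not pass. Of the 14 class I processing genes 3 fell (21.4%, against 7.83% of all tested genes), among them the loading complex disulfide isomerase Pdia3 (-0.38 ± 0.08) and the translocon subunit Sec61b (-0.72 ± 0.18). Only 1, the chaperone Canx, rose, and narrowly (0.26 ± 0.07, edgeR adjusted p = 0.0461). The median of the list was -0.15. With upper quartile scaling, library totals only, no low count filter or the naming style as a term, 0 genes of this list rose. With single libraries left out, 1 rose without MI-NS replicate 1 and 0 in each other fit. The peptide trimmer Erap1 (0.25 ± 0.10), calreticulin, Calr (-0.12 ± 0.10), and the proteasome activators Psme1 (0.0054 ± 0.092) and Psme2 (-0.0097 ± 0.15) did not pass.

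Of 18 genes of class II processing and control 2 fell (11.1%, against 7.83% of all tested genes) and 0 rose by edgeR, with a median of -0.085. By limma-voom 0 rose and by DESeq2 2, and 4 were higher at an unadjusted p under 0.05 in the edgeR fit. Cathepsin S, Ctss, which trims the invariant chain, had 14.2, 19.0 and 15.8 CPM in MI-DAPA, against 43.1, 21.1 and 26.7 CPM in MI-NS (log2 -0.89 ± 0.24, edgeR adjusted p = 0.0384). The groups were apart only narrowly at MI-NS replicate 2, and MI-NS replicate 1 was far above the rest. Ifi30, the lysosomal thiol reductase GILT, fell as well (-0.53 ± 0.14, edgeR adjusted p = 0.0361). The general lysosomal cathepsins Ctsb (0.030 ± 0.065) and Ctsd (0.27 ± 0.093), the ubiquitin ligase March8 (0.37 ± 0.12), the RFX factors that bind the X box, Rfx5 (0.23 ± 0.36), Rfxap (-0.064 ± 0.17) and Rfxank (-0.012 ± 0.10), and the costimulators Cd80 (-1.11 ± 0.46), Cd86 (-0.62 ± 0.31) and Cd40 (-0.19 ± 0.28) did not pass.

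Interferon gamma is the classic inducer of both classes. Its gene Ifng had 0 counts in every library, and its receptor chains moved apart: Ifngr1 fell (-0.32 ± 0.08, edgeR adjusted p = 0.0268) and Ifngr2 rose (0.53 ± 0.08, edgeR adjusted p = 0.00535). Of 19 tested genes of this axis, out of 22, 4 fell and 2 rose. The chemokine Cxcl10, the transcription factor Irf8 and the guanylate binding protein Gbp4 fell as well (-1.77 ± 0.40, -0.72 ± 0.16 and -0.37 ± 0.11), and the GTPase Iigp1 rose (0.40 ± 0.12). Irf1 (-0.42 ± 0.16), a transcription factor induced by interferon gamma, did not pass. Of 10 class I related genes outside H2, 6 were tested and 1, Procr, fell narrowly (-1.04 ± 0.30, edgeR adjusted p = 0.0472), while the neonatal Fc receptor heavy chain Fcgrt (-0.13 ± 0.07), Mr1 (0.13 ± 0.14) and the iron regulator Hfe (0.32 ± 0.10) did not pass. Of these 6 genes 0 were lower by DESeq2, limma-voom, with library totals only, without the low count filter, with the replicate block or with the naming style as a term, and 1 had an unadjusted p under 0.05 in the edgeR fit with that direction. Over these 4 lists the 10 falls became 0, 5 and 1 without MI-DAPA replicates 1, 2 and 3, and 3, 6 and 1 without MI-NS replicates 1, 2 and 3 (12 to 17 genes were lower at an unadjusted p under 0.05). The 3 rises became 1, 2 and 1, and 4, 1 and 1. Over all tested genes 7.83% were lower and 8.69% higher with every library. Their lower calls went from 1092 to between 457 and 844 in these fits, and their higher calls from 1212 to between 541 and 1087.

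Cell type markers were read in the same libraries, in which 7.83% of all tested genes were called lower and 8.69% higher. The tissue label was met by cardiomyocyte markers, which summed to 51092 to 54224 CPM in MI-DAPA and 41695 to 44586 CPM in MI-NS, with 4 of 7 higher (Myh6, Actc1, Ryr2 and Mybpc3). Of 4 general leukocyte markers 3 fell (Coro1a, Laptm5 and Lcp1), and Ptprc, which encodes CD45, did not pass (-0.56 ± 0.19, edgeR adjusted p = 0.0729). MI-NS replicate 2 had the lowest leukocyte marker sum of its group, 60.5 CPM, beside 81.8 and 86.6 CPM. Macrophage markers summed to 197 to 221 CPM in MI-DAPA and 255 to 306 CPM in MI-NS, and 3 of 11 tested (C1qa, C1qb and C1qc) fell. Dendritic cell markers summed to 19.5 to 23.9 CPM in MI-DAPA and 26.6 to 29.9 CPM in MI-NS, most of it Zbtb46, which endothelium also makes, and Zbtb46 (-0.31 ± 0.12), Clec10a (-0.67 ± 0.25) and Itgax (-0.51 ± 0.51) did not pass. The markers Xcr1, Clec9a, Ccr7, Flt3 and Siglech of that list had at most 10 counts in any library.

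Endothelial cells also carry class I. Their markers summed to 838 to 874 CPM in MI-DAPA and 996 to 1098 CPM in MI-NS, and 4 of 7 fell (Pecam1, Kdr, Egfl7 and Emcn). Fibroblast markers summed to 991 to 1199 CPM in MI-DAPA and 1916 to 2681 CPM in MI-NS, and 5 of 7 fell (Col1a1, Col1a2, Col3a1, Postn and Dcn). These called genes made up nearly all of the sum. Pdgfra (-0.22 ± 0.10, edgeR adjusted p = 0.175) and Tcf21 (-0.78 ± 0.29, edgeR adjusted p = 0.0979) did not pass. Lymphocyte markers were near the floor: B cell markers summed to 1.19 to 1.92 CPM in MI-DAPA and 1.19 to 2.79 CPM in MI-NS, T cell markers to 0.994 to 3.74 CPM in MI-DAPA and 2.02 to 2.53 CPM in MI-NS, and natural killer cell markers to 0.287 to 0.443 CPM in MI-DAPA and 0.343 to 0.444 CPM in MI-NS. Of these lists Cd79b (0.24 ± 0.75), Cd4 (0.13 ± 0.43) and Lck (-0.057 ± 0.47) were tested and did not pass.

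MHC counts were also set against the leukocyte markers within each library. Class II counts were 3.42, 4.08 and 3.39 times the summed leukocyte marker counts in MI-DAPA, against 3.47, 3.71 and 3.43 times in MI-NS. Class I counts were 14.1, 15.4 and 13.4 times those of the leukocyte markers in MI-DAPA, against 12.0, 16.5 and 12.9 times in MI-NS. Each pair of ranges overlapped, and MI-NS replicate 2, low for class II and leukocyte markers, had the highest class II ratio of its group and the highest class I ratio of all libraries. The part of cell numbers in the falls was not tested.

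**Figure D5:**
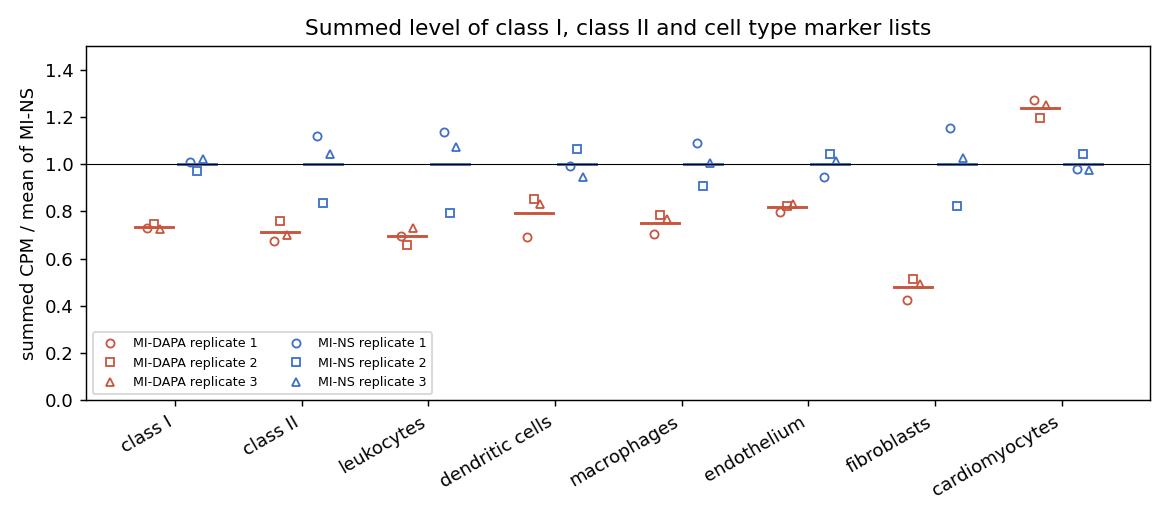
Summed CPM of class I genes, class II genes and cell type marker lists in each library, divided by the mean of the MI-NS libraries; MI-DAPA in red left of MI-NS in blue. Class I and class II lie at 0.733 and 0.712 in MI-DAPA, beside 0.694 for leukocyte, 0.752 for macrophage, 0.816 for endothelial, 0.478 for fibroblast and 1.24 for cardiomyocyte markers. The fibroblast sum is nearly all Col1a1, Col1a2, Col3a1, Postn and Dcn.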

How the data were processed

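Each library has 1 deposited table of unnormalized counts for 34745 genes, per the file headers. The submitters' processing notes name the build mm10 and, among tools, edgeR and StringTie 1.3.0; no source used here gives the aligner, the counting program or the use of strand. All 51 members matched GENCODE M21 by identifier, which gave strand and exon lengths; coordinates are those of the deposited files. Groups came from the sample titles. Counts were filtered with filterByExpr by group (minimum count 10), which kept 13940 genes, scaled by TMM, and tested with glmQLFit and glmQLFTest in edgeR 4.0.16 (R 4.3.3), with Benjamini-Hochberg adjustment over all genes and calls at an adjusted p under 0.05. Fold changes divide MI-DAPA by MI-NS; their SE is the absolute change over the square root of F. CPM used TMM-scaled totals. The floors of 3 counts cover counting error only. The filter cut-off refers to unscaled totals. Library totals were 19086206 to 20563188 in MI-DAPA and 17207974 to 20540321 in MI-NS, and every pair of libraries differed beyond counting noise (chi-square over degrees of freedom 9.94 or more). Members, gene lists and alternatives were chosen with earlier results of these data known. Every tested member is named; values per library are given for core members, called members and those with a mean of at least 5 CPM. The called genes of the added lists are named, with others chosen after their values were seen. Alternatives used other scalings, filters, DESeq2 1.42.0, limma-voom (limma 3.58.1), a replicate block and left-out libraries. One gene of the added lists, and that list's median, are not reported here. The steps were tested on simulated counts.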

Additional observations from a re-analysis of the deposited data

How the results depend on the processing

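All 9 called members stayed lower in direction in every alternative; of 413 refitted values of single members, 367 kept direction and side of the threshold, 31 lost a call, 6 gained one and 9 changed sign. The sign changes were those of H2-Ke6 (-0.087 with library totals only, -0.12 without replicate 3 of both groups, -0.070 to 0.15 with single libraries left out), H2-T24 (0.026 without replicate 3 of both groups, -0.24 to 0.082 with single libraries left out) and Ciita (-0.60 to 0.39 with single libraries left out). With single libraries left out, class I genes called lower numbered 4 to 5, class II genes 1 to 4, and all genes called 998 to 1863, against 2304; without replicate 3 of both groups these were 0, 0 and 24, with 2 libraries per group. With library totals as the only scaling, the median of all genes was -0.12, 24.7% of calls were higher (52.6% with TMM), 7 class I and 4 class II genes were lower, and the summed levels were 0.684 (class I) and 0.663 (class II) times MI-NS. Other scalings, filters, DESeq2 and limma-voom gave 4 to 6 class I and 4 class II genes, with Cd74 in place of H2-DMa by DESeq2. H2-Q6 lost its call by DESeq2 (adjusted p = 0.0597), with RLE scaling, without the low count filter and at a minimum count of 20. It also lost it with the naming style as a term. Replicate numbers were not used to pair the libraries in the main fit, and whether they share a source was not settled. Deviations of libraries with the same number correlated at 0.057, 0.020 and 0.12, and those with different numbers at -0.104 to 0.037. Every library but MI-NS replicate 2 correlated best with its own number in the other group. The replicate 3 libraries had the highest of these correlations. The replicate block gave 6 class I genes, 3 class II genes and 2307 genes in all, with H2-DMa lost (adjusted p = 0.0617) and H2-Q4 gained. The untested members were below the count filter.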
